A study of Homo sapiens with 6 samples.

Results

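The genes described here carry the retinoic acid signal inside a cell. They are the retinoic acid receptors *RARA*, *RARB* and *RARG*, the retinoid X receptors *RXRA* and *RXRB*, the cellular binding proteins *CRABP1* and *CRABP2*, and the clearing enzymes *CYP26A1*, *CYP26B1* and *DHRS3*. They were chosen by symbol, and all 10 were found once each among the 60651 genes of every table. Retinoic acid is made from vitamin A and crosses into the nucleus with the help of small binding proteins. There it binds a RAR that is paired with an RXR on DNA, which turns a repressing complex into an activating one. Among the genes switched on this way are *RARB* itself and the enzymes that destroy the ligand, so that the pathway limits its own signal. In neuroblastoma, a childhood tumour of the sympathetic lineage, retinoids make many cell lines stop dividing and grow neurites, and 13-cis retinoic acid is part of treatment.

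Total RNA was sequenced from 6 cultures of a human neuroblastoma cell line, 3 titled EtOH (the ethanol vehicle) and 3 titled Tet (tetracycline, given for 5 days according to the protocol). No retinoid is named in any label. The labels conflict on the cells. The titles carry the name IMR575, a *MYCN*-amplified line that the study used with an inducible shRNA against *MYCN*, and 1 tag is called knockdown, with the values Control and Induction. The protocol instead speaks of single SK-N-SH clones with a tetracycline repressor and an inducible *MYCN* construct under G418 and blasticidin selection. Groups therefore follow the titles. Nothing in the labels says that the 3 cultures of a group were started separately. For its in vitro experiments in general, the study states 3 independent biological replicates unless noted otherwise. The p-values measure the spread between these samples only.

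Libraries held between 27933378 and 40498065 estimated counts. The targeted gene gave no check of the labels EtOH and Tet. *MYCN* had 158, 256 and 156 CPM (counts scaled to library size) in the EtOH libraries, in order of replicate number, and 197, 200.1 and 145 CPM in the Tet libraries, so the groups overlapped (log2 fold change -0.07, SE 0.23, adjusted p by edgeR = 0.956). *MYCN* was high in both groups, with 163, 290 and 162 TPM (which also divides by exon length) in EtOH replicates 1 to 3. Its mean of 195 TPM over the 6 libraries was above 98.5% of all genes tested. No other cell line was measured here, so which of the named cells this level belongs to was not tested. Of 10 neuroblastoma markers, 8 were expressed highly enough to test, whereas *TH* (total count 1) and *DBH* (total count 36) were close to absent. The summed level of these markers was 584 to 614 TPM in libraries labelled EtOH and 658 to 772 TPM in those labelled Tet. The immune marker *CD3E* and the endothelial marker *VWF* were at 0 in all libraries, and the summed immune list reached at most 2.10 TPM. The 8 mesenchymal markers summed to between 87.0 and 157 TPM with EtOH and between 95.5 and 176 TPM with Tet, with *COL1A2* at 0. Most of this sum was *TWIST1*, with means of 72.1 TPM (EtOH) and 103 TPM (Tet), and *PRRX1*, with 29.7 and 13.7 TPM. Their log2 fold changes were 0.59 (SE 0.26, adjusted p by edgeR = 0.474) and -1.02 (SE 0.34, adjusted p by edgeR = 0.317). Of the 6 mesenchymal markers tested, 2 had a positive log2 fold change and 4 a negative one. The 4 Schwann cell markers summed to between 1.06 and 3.50 TPM over all libraries, with *S100B* at 0. What part these marker levels had in any result was not tested.

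The response element that gives the pathway its feedback could be read from the genome. Retinoic acid receptors are known to bind direct repeats of a 6-base half-site, classically spaced by 5 bases (DR5). The half-site was taken as AGGTCA, or the variant GGGTCA, or the variant AGTTCA, or GGTTCA, which carries both changes. Repeats of these in any combination and on both strands were searched from 250 bases before to 50 bases after every distinct start of a protein-coding transcript. A DR5 was present in 36 of 78566 such windows (0.0458%). Of the 10 genes, with 43 windows, it was found in *RARB* and *CYP26A1*, in both at the representative (MANE Select) transcript. The pair is shown because both are textbook targets of the receptors, and because their mean levels here were 17.8 TPM for *RARB* and 0.112 TPM for *CYP26A1*. A repeat spaced by 1 base was found upstream of 1 alternative start of *CRABP2*, where 0.197% of windows hold one. Repeats spaced by 2 bases, which 0.158% of windows hold, were not seen in the 43 windows. The sequences run 5′ to 3′ on the strand of the repeat (GRCh38), at chr3:25428204-25428232 (plus strand), chr10:93073797-93073825 (minus strand) and chr1:156706020-156706048 (minus strand), with the half-sites in capitals.
RARB: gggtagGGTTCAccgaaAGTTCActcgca
CYP26A1: acaattAGTTCAcccaaAGTTCAtcttta
CRABP2: ctggatccAGTTCAgGGTTCAatggagct
With the transcript start as base 0, the *RARB* repeat lies from -53 to -37 and the *CYP26A1* repeat from -90 to -74. A match describes the letters only and says nothing of binding in these cells.

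*RARB* was the only member expressed at a substantial level. Its levels were 19.1, 19.8 and 19.5 TPM in EtOH replicates 1 to 3 and 16.5, 14.7 and 17.5 TPM in Tet replicates 1 to 3. Averaged over the 6 libraries this was 17.8 TPM, above 71.6% of the 22443 genes tested. *RARB* made up between 85.95% and 95.2% of the summed TPM of the 3 RAR genes, and between 75.6% and 87.0% of the sum over all 10 members. In order of mean level, *RARB* was followed by *RARA* (1.28 TPM), *CRABP2* (0.826), *CRABP1* (0.613), *RXRA* (0.375), *RXRB* (0.331), *CYP26A1* (0.112), *RARG* (0.0896), *CYP26B1* (0.0256) and *DHRS3* (0.0123 TPM). The lowest library of *RARB* was above the highest library of *RARA* (2.79 TPM). For every other pair of neighbours in this order, the ranges over libraries overlapped.

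**Figure D1:**
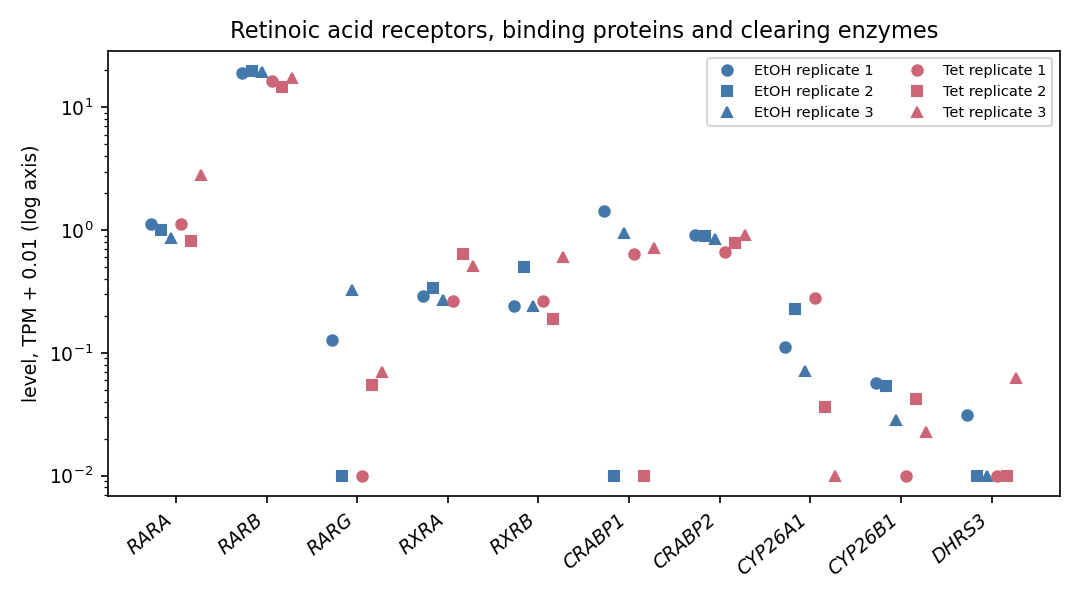
Level of each member in each library, as TPM + 0.01 on a log axis, where points at the bottom are libraries with no count. Blue marks are the 3 libraries labelled EtOH and red marks the 3 labelled Tet, with 1 shape per replicate number. *RARB* lies between 14.7 and 19.8 TPM in all libraries, and the other 9 genes lie at 2.79 TPM or below.

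Such comparisons between genes carry a limit of these libraries, in which GC-rich genes had few counts. Among genes tested, the median level fell from 18.1 TPM for genes with under 40% GC in their exon bases to 0.689 TPM for genes with 60% or more. Exons of *RARB* have 42.9% GC, a bin in which the median gene had 10.8 TPM. Exons of the other 9 members have between 51.7% GC (*CYP26A1*) and 63.5% (*RARA*). In the bin of 60% and over, *RARA* lay above the median of 0.689 TPM and *RXRA* (62.0% GC) below it. Among genes of 55 to 60% GC the median was 1.2 TPM, against 0.331 TPM for *RXRB* (56.7%), 0.0256 TPM for *CYP26B1* (56.6%) and 0.0123 TPM for *DHRS3* (55.5%). How far GC content set these levels was not tested.

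The libraries also differed from each other in this respect. In Tet replicate 3, genes of 60% GC and over had a median deviation of 0.99 on the log2 scale from the mean of the 6 libraries, against 0.08, -0.33 and -0.19 in EtOH replicates 1 to 3 and -0.23 and -0.21 in Tet replicates 1 and 2. Across that bin the median log2 fold change between the labels was 0.47, whereas over all genes tested it was -0.01. A fit corrected for GC content, chosen after the data were seen, is therefore given beside the tested genes described here whose exons have 55% GC or more. For *MYCN* (56.9% GC) it gave a log2 fold change of -0.18.

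**Figure D2:**
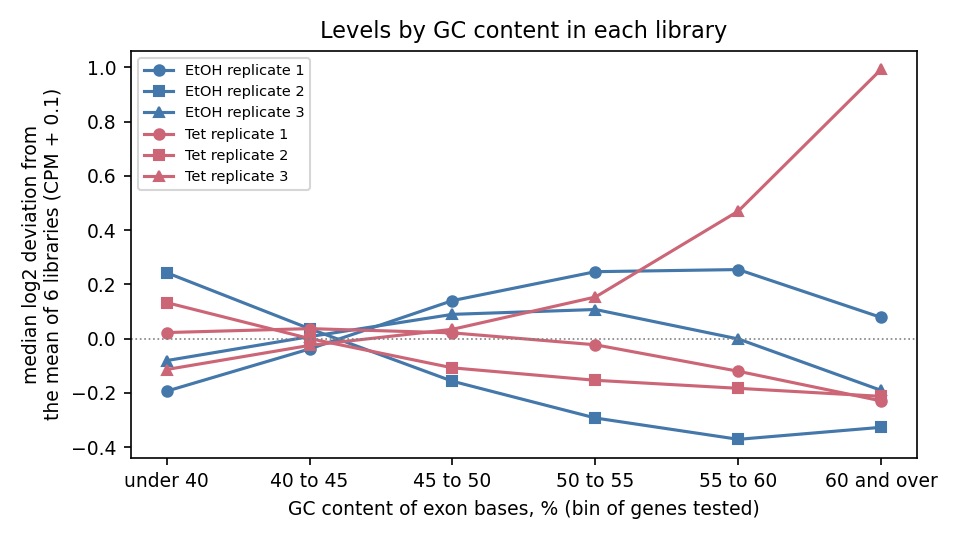
Median deviation of each library from the mean of the 6 libraries, on the log2 scale of CPM + 0.1, for genes tested in 6 bins of exon GC content. Tet replicate 3 rises to 0.99 in the bin of 60% and over, while the other 5 libraries lie between -0.33 and 0.08 there.

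The main comparison asked whether any of these genes differed between libraries labelled Tet and EtOH. Only 5 of the 10 members passed the filter on low counts, namely *RARA*, *RARB*, *RXRA*, *RXRB* and *CRABP2*, and 0 of them had an adjusted p under 0.05, while 0.236% of all genes tested did (edgeR). None of the 5 had an unadjusted p under 0.05 either, against 10.8% of all genes tested. DESeq2 likewise called 0 of these 5 and gave no adjusted p for the other 5. The CPM ranges of the groups overlapped for all 5, whereas they did not overlap for 17.5% of all genes tested. The median log2 fold change of the 5 was 0.28. In RNA from whole cultures, a smaller number of cells expressing a gene and less RNA per cell cannot be told apart.

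*RARB* (ENSG00000077092.19, chromosome 3, 25174332 to 25597932, plus strand) encodes the receptor that retinoic acid itself induces. Its log2 fold change was -0.19 (SE 0.17, 95% interval -0.57 to 0.20, adjusted p by edgeR = 0.781), and the group means were 25.8 ± 0.929 CPM (EtOH) and 22.7 ± 3.4 CPM (Tet; n = 3 each, SD). On the TPM scale the 3 libraries labelled Tet were all below the 3 labelled EtOH, as held for 9.93% of genes tested, but on the CPM scale Tet replicate 3 (26.5 CPM) was above EtOH replicates 1 and 2 (26.1 and 24.7 CPM). The direction was the same in all 12 alternative fits. Its 3′ end shares 0.757% of its exon bases with *TOP2B* on the other strand, and the counting ignored strand. *TOP2B* had a total count of 366837 against 4792 for *RARB*. Reads of both genes cannot be told apart on the shared bases, and what part they had in the level of *RARB* was not tested.

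*RARA* (ENSG00000131759.18, chromosome 17, 40309180 to 40357643) encodes the receptor that is usually the broadly expressed one. It had 1.11, 0.989 and 0.853 TPM in EtOH replicates 1 to 3 and 1.12, 0.809 and 2.79 TPM in Tet replicates 1 to 3, so that 1 library stood apart from 5 that overlapped. The log2 fold change of 0.80 (SE 0.50, 95% interval -0.35 to 1.95, adjusted p by edgeR = 0.645) did not exceed the replicate spread. It was -0.03 without Tet replicate 3 and 0.25 after GC correction. Exon bases shared with 3 antisense genes made up 21.4% of *RARA*, and the counting ignored strand. The largest of these, *RARA-AS1*, had a total count of 174 against 478 for *RARA*, and its 0.906 CPM in Tet replicate 3 lay within the range of the other libraries (0.621 to 1.24 CPM). The other two were highest in Tet replicate 3, as *RARA* was. ENSG00000278918 had 0.654 CPM there and at most 0.144 CPM elsewhere, and ENSG00000287644 had 0.604 CPM there and at most 0.461 CPM elsewhere. Reads of *RARA* and of these genes cannot be told apart on shared bases.

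*RARG* (ENSG00000172819.17, chromosome 12, 53210567 to 53232980), the receptor known best from skin and limb, was close to absent. Its counts were 8, 0 and 18 in EtOH replicates 1 to 3 and 0, 3 and 5 in Tet replicates 1 to 3. At these counts a difference was not detectable.

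The RXR genes encode the obligatory partners of the RARs. *RXRA* (ENSG00000186350.12, chromosome 9, 134317098 to 134440585) had 0.280, 0.327 and 0.261 TPM in EtOH replicates 1 to 3 and 0.257, 0.629 and 0.498 TPM in Tet replicates 1 to 3. Tet replicates 2 and 3 were above all libraries labelled EtOH, and Tet replicate 1 was below them. The log2 fold change was 0.77 (SE 0.40, 95% interval -0.14 to 1.67, adjusted p by edgeR = 0.552), the lowest p of the members, and 0.51 after GC correction. *RXRB* (ENSG00000204231.11, chromosome 6, 33193588 to 33200665) had between 9 and 38 counts a library. It shares 5.67% of its exon bases with *SLC39A7* on the other strand, which held 331 counts in all. Levels of *RXRB* were 0.232, 0.492 and 0.231 TPM with EtOH and 0.257, 0.177 and 0.598 TPM with Tet. The log2 fold change of 0.28 (SE 0.61, 95% interval -1.13 to 1.68, adjusted p by edgeR = 0.933) did not exceed the replicate spread. It was 0.01 after GC correction. The direction was the same in 11 of 12 alternative fits and reversed without Tet replicate 3 (-0.52). The third gene of this family, *RXRG*, had a total count of 36 and was not tested. Summed TPM of the RAR genes exceeded that of *RXRA* and *RXRB* by 18.5 to 42.1 times, a ratio that sets the AT-rich *RARB* against GC-rich genes.

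**Figure D3:**
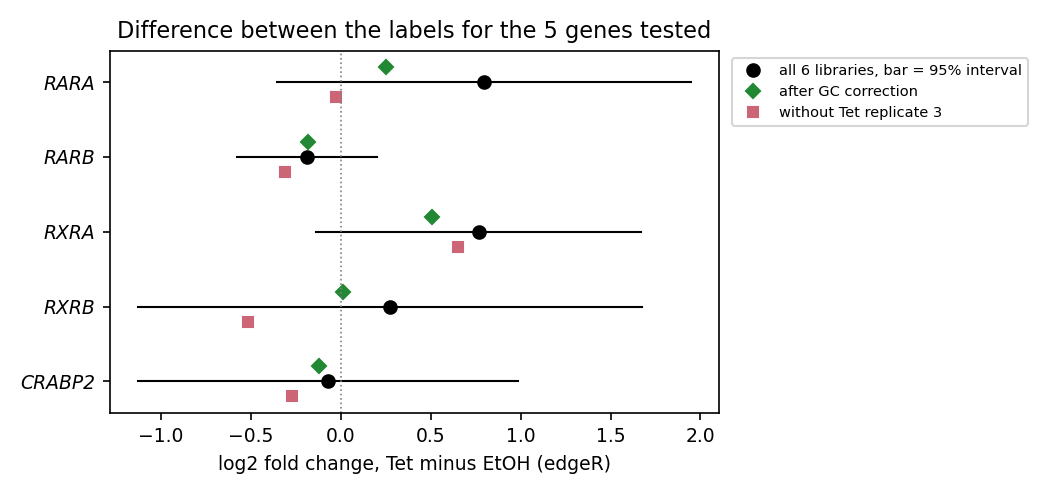
Log2 fold change (Tet minus EtOH) of the 5 members tested, with the 95% interval of the fit to all 6 libraries as a bar, the value after GC correction as a diamond and the value without Tet replicate 3 as a square. All 5 intervals span 0, and *RARA* moves from 0.80 to -0.03 without Tet replicate 3.

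The cellular binding proteins hold retinoic acid in the cytosol. *CRABP2* (ENSG00000143320.9, chromosome 1, 156699606 to 156705816), which hands the ligand to RARs, was low and even, with 0.904, 0.887 and 0.831 TPM in EtOH replicates 1 to 3 and 0.647, 0.781 and 0.907 TPM in Tet replicates 1 to 3. The groups overlapped, and the log2 fold change was -0.07 (SE 0.46, 95% interval -1.13 to 0.98, adjusted p by edgeR = 0.981) and -0.12 after GC correction. *CRABP1* (ENSG00000166426.8, chromosome 15, 78340353 to 78348225), which is tied to storage and breakdown of the ligand, was absent from 2 libraries. Its counts were 18, 0 and 10 in EtOH replicates 1 to 3 and 6, 0 and 11 in Tet replicates 1 to 3, so both libraries numbered 2 had none. A count of 0 allows up to 0.108 CPM in EtOH replicate 2 and 0.0846 CPM in Tet replicate 2. In these libraries genes of 55 to 60% GC, the bin of *CRABP1* (56.3%), were also low, with median deviations of -0.37 and -0.18 on the log2 scale, and what part this had in the zeros was not tested. An antisense gene covers 45.9% of the exon bases of *CRABP1* and held 8 counts in all.

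The clearing enzymes were nearly silent, the DR5-bearing *CYP26A1* included. CYP26 enzymes oxidise retinoic acid for disposal, and DHRS3 returns its precursor retinaldehyde to retinol. *CYP26A1* (ENSG00000095596.12, chromosome 10, 93073475 to 93077885) had 4, 6 and 2 counts in EtOH replicates 1 to 3 and 8, 1 and 0 counts in Tet replicates 1 to 3. Of its exon bases, 25.3% are shared with ENSG00000285846 on the same strand, which held 20 counts in all. *CYP26B1* (ENSG00000003137.9, chromosome 2, 72129238 to 72147862) had 3, 2 and 1 counts with EtOH and 0, 2 and 1 counts with Tet. *DHRS3* (ENSG00000162496.9, chromosome 1, 12567910 to 12618210) had 1 count in EtOH replicate 1, 3 counts in Tet replicate 3 and 0 in the other 4 libraries. No library of *CYP26B1* or *DHRS3* had more than 3 counts, so no fold change is given for them. In a fit without the filter, which includes the 5 low members, their adjusted p-values were between 0.702 and 0.94. Of the 30 genes with a DR5 near a start, 17 were tested and 0 were called, beside 0.236% of all genes tested.

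The wider pathway was described through 7 lists of 77 genes, members included, of which 47 were tested. Of these, 0 were higher and 1 was lower with Tet at the adjusted threshold of 0.05, where 0.147% and 0.0891% of all genes tested were. At an unadjusted p under 0.05 there were 4 higher and 5 lower, against 5.83% and 4.94% of all genes tested. The CPM ranges did not overlap for 7 genes higher and 8 lower with Tet, against 9.2% and 8.28% of all genes. The median log2 fold change was -0.07, beside -0.01 over all genes tested.

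**Figure D4:**
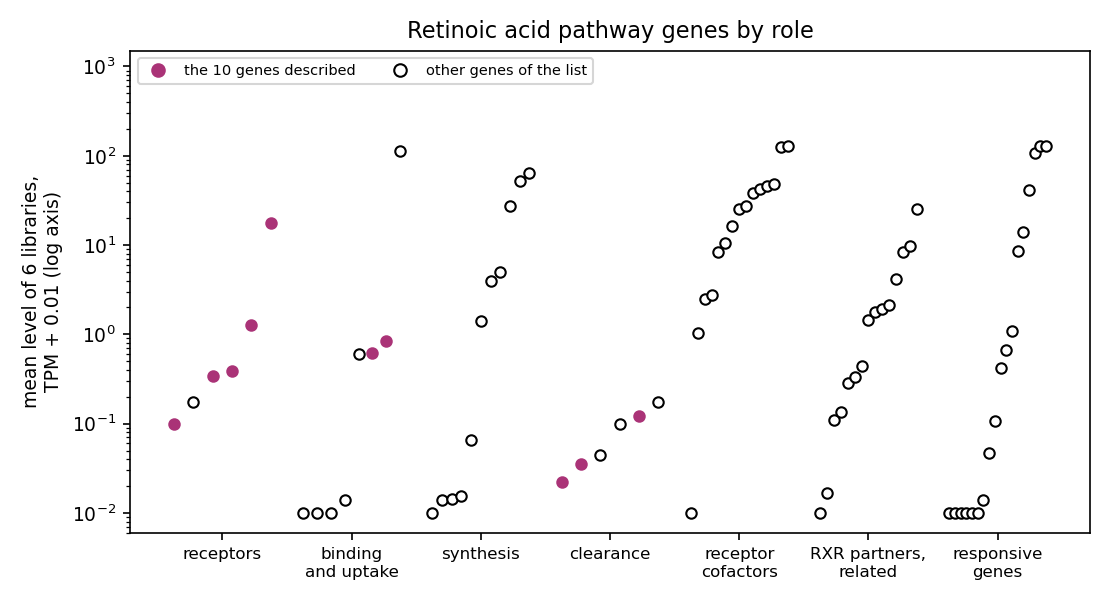
Mean level over the 6 libraries of each gene in the 7 pathway lists, as TPM + 0.01 on a log axis, sorted within each list. Filled points are the 10 members, open points the other genes of a list. All 6 genes of the clearance list lie below 0.17 TPM, whereas cofactors such as *NRIP1* reach 127 TPM.

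Upstream of the members, some genes listed under synthesis of retinoic acid were expressed. *RDH11* and *ADH5* had mean levels of 51.7 and 63.5 TPM. The retinol dehydrogenase gene *RDH10* had 4.58 ± 1.28 TPM with EtOH and 3.39 ± 0.887 TPM with Tet (n = 3 each, SD). In which direction the enzymes of this list act on retinol in these cells was not tested. *RDH11* had 51.6, 75.4 and 56.6 TPM in EtOH replicates 1 to 3 and 39.2, 41.2 and 45.9 TPM in Tet replicates 1 to 3, with no overlap. Its log2 fold change was -0.45 (SE 0.18), short of the threshold (adjusted p by edgeR = 0.413). Of the enzymes that make retinoic acid itself, *ALDH1A1* (total count 1) and *ALDH1A2* (total count 32) were not tested. *ALDH1A3* had 1.77 ± 0.213 TPM with EtOH and 1.03 ± 0.223 TPM with Tet (n = 3 each, SD; log2 fold change -0.70, SE 0.28, adjusted p by edgeR = 0.407), and it shares 33.3% of its exon bases with other genes. The liver-type alcohol dehydrogenase *ADH4* had a log2 fold change of 0.79 (SE 0.41, adjusted p by edgeR = 0.558), which was 1.43 without EtOH replicate 2 (adjusted p = 0.0284) and 0.51 without EtOH replicate 1. Of the 11 genes of this list 6 were tested and 0 were called (0.236% of all genes tested were). *RDH11* and *ALDH1A3* were the 2 with an unadjusted p under 0.05 and with all Tet libraries below the EtOH libraries in CPM, which held for 4.94% and 8.28% of all genes tested in that direction.

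The fatty acid binding protein *FABP5*, which can also carry retinoic acid, was by far the most abundant carrier, with 126.6 ± 31.2 TPM with EtOH and 102 ± 2.30 TPM with Tet (n = 3 each, SD; log2 fold change -0.22, SE 0.17, adjusted p by edgeR = 0.718). *FABP5* has processed copies in the genome, and only unique alignments were counted, so its level is uncertain. *RBP4*, *TTR* and *LRAT* had no count in any library, and *STRA6*, the retinol uptake receptor, had a total count of 3. In the clearance list, 0 of 6 genes passed the filter, with the triglyceride enzyme *DGAT1* the highest at 0.165 TPM.

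Cofactors of the receptors were well expressed, in contrast to the receptors themselves. *NRIP1*, a corepressor that binds ligand-bound receptors, and *TBL1XR1*, a subunit of the NCOR corepressor complex, had mean levels of 127 and 126.4 TPM. Of 14 cofactors tested 0 were called, 4 had an unadjusted p under 0.05, all with higher levels in Tet, and 6 lay above all EtOH libraries in CPM. Over all genes tested these shares were 0.236%, 5.83% and 9.2%. The acetyltransferase gene *KAT2B* had 31.8, 43.99 and 32.3 TPM in EtOH replicates 1 to 3 and 56.95, 77.0 and 47.8 TPM in Tet replicates 1 to 3 (log2 fold change 0.82, SE 0.19, adjusted p by edgeR = 0.154). The coactivator gene *NCOA1* had 20.3 ± 2.10 and 30.1 ± 2.23 TPM (n = 3 each, SD; log2 fold change 0.63, SE 0.16, adjusted p by edgeR = 0.183). *ZNF423*, whose zinc finger protein is known as a RAR cofactor in neuroblastoma, had 0.749 ± 0.283 and 1.29 ± 0.250 TPM (log2 fold change 0.87, SE 0.31, adjusted p by edgeR = 0.354, and 0.79 after GC correction). With the replicate number as a block, *KAT2B* and *NCOA1* passed the threshold (adjusted p by edgeR = 0.00867 and 0.0372). That fit called 421 genes higher and 254 lower of the 22443 tested, and a pairing by replicate number was not established.

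Genes known to respond to retinoic acid were mostly silent or did not pass the test. Of 18 such genes 10 were tested, 0 were called, and 8 of the 10 had a negative log2 fold change, with a list median of -0.36. Over all genes tested 0.236% were called, and 11374 of 22443 had a negative value. *HOXB1*, *HOXB2*, *CDX1*, *RARRES2* and *PLAAT4* had no count in any library. The transglutaminase *TGM2*, a long-known target, had a total count of 21. *RARRES1* had 10.3, 9.98 and 10.02 TPM in EtOH replicates 1 to 3 and 7.83, 5.64 and 7.29 TPM in Tet replicates 1 to 3, with no overlap, although 14.4% of its exon bases are shared with other genes (log2 fold change -0.47, SE 0.23, adjusted p by edgeR = 0.52). The neurotrophin receptor gene *NTRK2* was low, at 0.153 ± 0.0181 and 0.0409 ± 0.0258 TPM (n = 3 each, SD; log2 fold change -1.75, SE 0.55, adjusted p by edgeR = 0.287). *MEIS2*, a homeobox gene, had 47.4 ± 11.4 and 35.7 ± 5.06 TPM (log2 fold change -0.33, SE 0.18, adjusted p by edgeR = 0.56). *RAI14*, named for its induction by retinoic acid, had a mean level of 128.5 TPM and a log2 fold change of 0.34 (SE 0.19, adjusted p by edgeR = 0.592). The other positive gene, the homeobox gene *MEIS1*, had 99.3 ± 12.9 and 115 ± 12.7 TPM (log2 fold change 0.27, SE 0.17, adjusted p by edgeR = 0.63), and was picked after its values were seen.

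The gene that passed the test was *THRB* (ENSG00000151090.20, chromosome 3, 24117153 to 24495756, minus strand). It encodes thyroid hormone receptor beta, another nuclear receptor that pairs with RXR. Its levels were 2.92, 2.27 and 2.98 TPM in EtOH replicates 1 to 3 and 0.948, 0.7001 and 0.772 TPM in Tet replicates 1 to 3. Every library labelled Tet was below every library labelled EtOH, and the log2 fold change was -1.70 (SE 0.24, adjusted p by edgeR = 0.0428). The call was lost without EtOH replicate 1 (adjusted p = 0.165), without EtOH replicate 3 (0.265) and without Tet replicate 1 (0.258), 2 (0.204) or 3 (0.207), while the fold change stayed between -1.84 and -1.59 in fits that left out 1 library. Without EtOH replicate 2 the adjusted p was 0.00661, and over all alternatives it ranged from 2.7e-07 (DESeq2) to 0.265. *NR4A2*, an orphan receptor that also pairs with RXR, had 2.04 ± 0.108 and 0.807 ± 0.191 TPM (n = 3 each, SD; log2 fold change -1.28, SE 0.29, adjusted p by edgeR = 0.142), and *PPARG* had 11.7 ± 0.433 and 7.96 ± 2.57 TPM (log2 fold change -0.50, SE 0.23, adjusted p by edgeR = 0.49). The related receptor *RORB*, which is not an RXR partner, was the most abundant of this list, at 25.1 TPM (log2 fold change -0.18, adjusted p by edgeR = 0.723).

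*THRB* is a close neighbour of *RARB* on the short arm of chromosome 3, and the genes between and around them were looked at after these values were seen. Of the 19 tested genes within 1.5 Mb, *RARB* included, *THRB* was the one called, beside 0.236% of all genes tested. *NR1D2*, the orphan receptor gene on the far side of *THRB*, had 210.4, 218.5 and 243 CPM in EtOH replicates 1 to 3 and 153, 183 and 162 CPM in Tet replicates 1 to 3, with no overlap (log2 fold change -0.43, SE 0.14, adjusted p by edgeR = 0.317). *THRB-IT1*, annotated within *THRB*, had a log2 fold change of -1.63 (SE 0.35, adjusted p by edgeR = 0.12). *TOP2B*, which adjoins *RARB* on the other side, had 1882 ± 177 CPM with EtOH and 1853 ± 30.8 CPM with Tet (n = 3 each, SD; log2 fold change -0.02, SE 0.15). All Tet libraries also lay below the EtOH libraries for *THRB-IT1* and for the pseudogene *RPL31P20* (log2 fold change -1.36, adjusted p by edgeR = 0.362). *RPL31P20* lies within the span of *THRB* too. The counting ignored strand, so reads of *THRB* RNA there cannot be told apart. The groups were in the same order for *NGLY1* (-0.21, adjusted p = 0.681) and *LRRC3B* (-0.75, adjusted p = 0.377). They were in the reverse order for *LRRC3B-AS1* (0.34, adjusted p = 0.826). Over all genes tested, 8.28% had all Tet libraries below the EtOH libraries and 9.2% had them above. Whether the change of *THRB* differed from that of *RARB* was not tested.

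**Figure D5:**
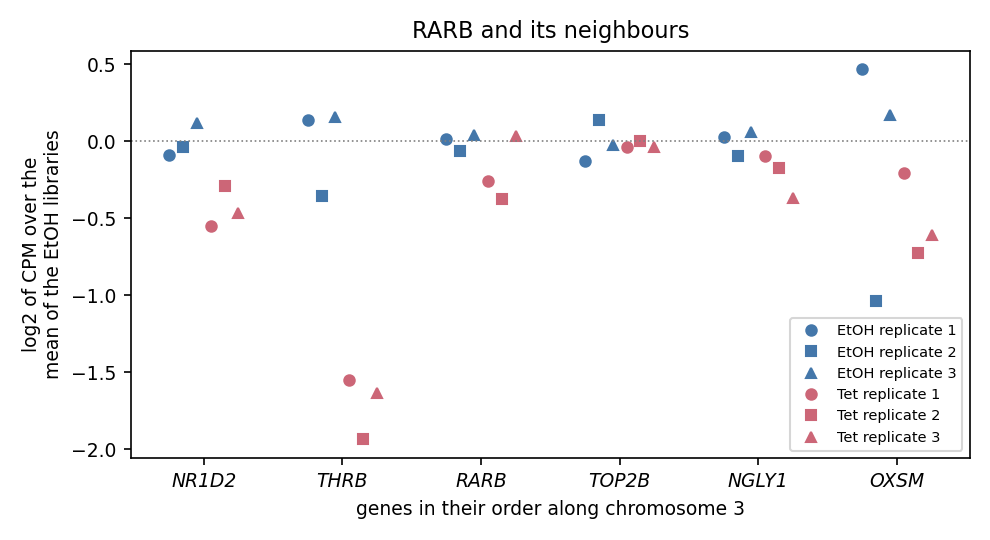
Level of *RARB* and 5 neighbouring genes in each library, as the log2 of CPM over the mean of the 3 libraries labelled EtOH, in their order along chromosome 3. The 3 libraries labelled Tet lie far below the EtOH libraries for *THRB* (fitted log2 fold change -1.70) and overlap with them for *RARB* (-0.19) and *TOP2B* (-0.02).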

How the data were processed

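Total RNA depleted of ribosomal RNA was sequenced from 6 cultures, 3 per group. The deposited values are estimated counts per gene. Per the file headers, the authors counted unique STAR alignments over exons with featureCounts 1.6.4 without strand, dividing a read pair over several genes evenly; the processing notes name STAR 2.7.1a, featureCounts 1.5.1 and GRCh38, and the study's methods a strand-aware count. Here, counts were rounded, filtered with filterByExpr, scaled by TMM and tested in edgeR 4.0.16 (R 4.3.3) with its quasi-likelihood test and no block, with Benjamini-Hochberg adjustment over the 22443 genes tested (threshold 0.05). CPM is TMM-normalised, and TPM was computed from counts and exon length without TMM. The SE is the fold change divided by the square root of F, and intervals are 95%. Across libraries, 3 counts equal 0.0755 to 0.108 CPM, which covers counting error only. The 92 spike-ins had no count. GC content came from exon bases of GRCh38, and transcript starts from GENCODE. The fit was checked on simulated counts with the same variability setting for every gene and no GC effect. That check does not cover the GC differences between these libraries. Named genes were the members, *MYCN*, called pathway genes, and per list the 3 lowest p-values and 2 highest levels; others, and *RARB* neighbours, were chosen after their values were seen. Members and lists were chosen with earlier results of these data known. Alternatives were RLE and upper quartile scaling, no filter, DESeq2 1.42.0, a replicate block, leaving out each library and, added later, a GC correction. Protein sequences were not used here. Some genes of the lists, among them a gene that met the naming rule, are not reported here.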

Additional observations from a re-analysis of the deposited data

How the results depend on the processing

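The count of members called was 0 in each direction under all 12 alternatives. Over all genes, calls higher and lower with Tet (33 and 20) numbered 13 lower under RLE scaling, 185 and 117 with no filter, 282 and 203 under DESeq2, 70 and 47 after GC correction, and 421 and 254 with the replicate block. They ranged from 0 to 361 and from 0 to 331 in fits without 1 library. Pathway genes called numbered 1 higher with no filter (*KAT2B*), 2 lower under DESeq2 (*THRB* and *NR4A2*), 2 higher with the replicate block (*KAT2B* and *NCOA1*), and 0 to 2 higher and 0 to 1 lower in fits without 1 library. Without EtOH replicate 2, *KAT2B* (adjusted p = 0.0302) and *ADH4* (0.0284) were called. After removal of group means, the pairs with replicate numbers 1, 2 and 3 correlated at 0.0603, 0.51 and 0.219, which does not establish a pairing.

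In fits without 1 library, log2 fold changes changed sign for *MYCN* (-0.22 to 0.21), *RARA* (-0.028 to 1.13), *RXRB* (-0.52 to 0.67), *CRABP2* (-0.27 to 0.063), *ADH5* (-0.14 to 0.24) and *TBL1XR1* (-0.29 to 0.095), and *ADH5* was at -0.000465 under RLE scaling. None of these passed the threshold. For these and the counts above, the cause was not tested. *RARB* ranged from -0.31 to -0.099 and *RXRA* from 0.52 to 1.07. *RARG*, *CRABP1* and the clearing enzymes had too few counts to pass the filter, and a difference was not detectable at these counts.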
